A study of Mus musculus with 12 samples.

Results

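The genes described here are 8 solute carrier genes that encode transporters of organic anions, dicarboxylates and monocarboxylates, or relatives of such transporters, followed in livers of mice lacking the pregnane X receptor. They are Slco1a4, Slco2a1, Slc22a27, Slc22a29, Slc17a4, Slc13a3, Slc16a1 and Slc26a10. They were picked by name from the authors' deposited table of high-fat diet (HFD) against chow, where they are 8 of 336 genes. That table holds only genes that the authors' own test had selected, so the diet difference is what chose these genes and is given as a description with no test. The pregnane X receptor (PXR), the product of Nr1i2, is a ligand-activated transcription factor that switches on drug-handling genes when foreign compounds bind it.

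All 12 mice were PXR deficient on the C57BL/6N strain, and 1 liver library was made from each. From 6 weeks of age they ate regular chow or HFD for 18 weeks, 3 mice on chow and 9 on HFD. Of the HFD mice, 3 had no injection in the labels, 3 had vehicle (30% DMSO in corn oil) and 3 had the PXR ligand PCN at 50 mg/kg, intraperitoneally and daily over 4 days. Neither the sex of the mice nor how the receptor was inactivated is in the labels. The diet comparison uses the 3 chow and the 3 uninjected HFD mice, which differ in diet alone according to the labels. Of the 8 transporter genes, 0 are among the 33 genes of the PCN against vehicle table, which are 0.131% of the about 25270 genes tested there, so the injected mice were not analysed here for them. Nr1i2 and the 9 hepatocyte marker genes checked, Alb and Ttr among them, are not among the rows, so the genotype could not be checked and those markers say nothing of the tissue. Rows with genes known from liver do exist, such as the major urinary protein gene Mup20 at 11891 ± 2081 normalized counts on chow and 6197 ± 495 on HFD (SD, n = 3 each).

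Hepatocytes take up organic anions from blood across their sinusoidal membrane through transporters of the SLCO (OATP) and SLC22 (OAT) families. Relatives of the SLC13 family carry dicarboxylates with sodium, and those of the SLC16 family carry lactate, pyruvate and ketone bodies with protons. The SLCO family is known for moving bile acids, steroid conjugates and drugs, and several of its liver members are regulated by nuclear receptors.

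Of the 8 genes, 6 were higher on HFD in the authors' deposited table (Slco1a4, Slc22a27, Slc22a29, Slc17a4, Slc13a3 and Slc26a10) and 2 were lower (Slco2a1 and Slc16a1). Of all 336 rows 64.0% were higher and 36.0% lower. The authors tested about 25000 genes, of which 1.34% are rows of the table, 0.860% as higher and 0.484% as lower. No row has an adjusted p above 0.0474 or a log2 fold change closer to 0 than 0.6. The transporter gene nearest to the limit on p was Slc22a29 (deposited adjusted p 0.02865), and the nearest to the limit on fold was Slc13a3 (deposited log2 fold change 0.93); genes outside the limits were not analysed here. The ratio of group means had a median of 3.85-fold for the 6 higher genes and 2.31-fold for all 215 rows listed as higher. It was 2.57-fold for the 2 lower genes and 1.99-fold for all 121 rows listed as lower. In all 8 genes the 3 mice of 1 diet were separate from the 3 of the other, as they were in 99.4% of the 336 rows, so this count is near the background.

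Levels are normalized read counts, that is, raw counts divided by the authors' size factors. These factors ran from 0.8286 (chow mouse 707) to 1.1372 (HFD mouse 696), and raw counts summed over the listed genes ran from 547431 to 920106 per mouse. How deep each whole library was is unknown. Scaling on the listed genes alone moved the median log2 ratio of all rows by -0.64 and leaving counts unscaled moved it by 0.13. The 8 directions were the same under each of these scalings. In bulk liver, fewer cells of a type and less RNA per cell cannot be told apart.

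**Figure D1:**
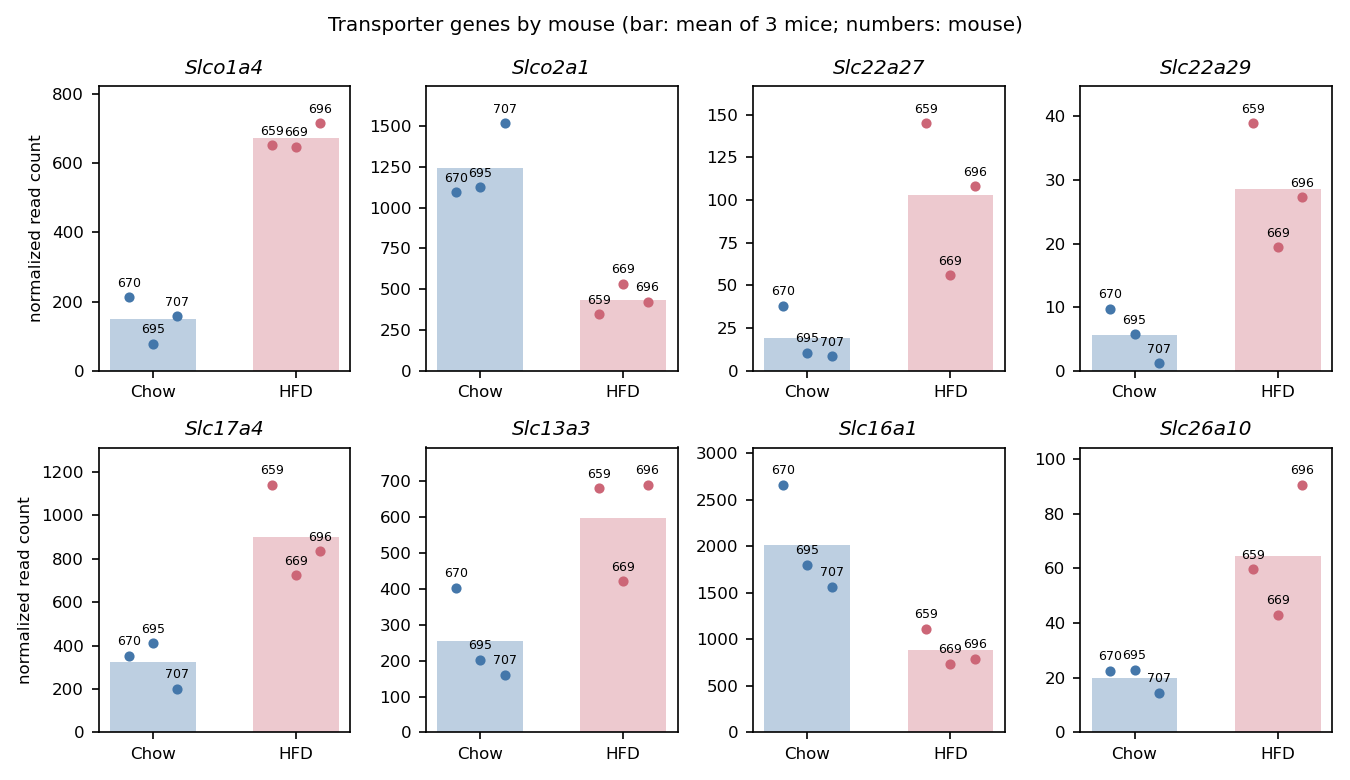
Normalized read counts (vertical axes, starting at 0) of the 8 transporter genes in 3 chow mice (blue) and 3 uninjected HFD mice (red), 1 point per mouse with its number, bars showing group means. Slco1a4 lies between 647 and 715 in the HFD mice and at or below 213 on chow, whereas the Slc13a3 values of chow mouse 670 and HFD mouse 669 nearly meet.

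Slco1a4 (ENSMUSG00000030237) encodes OATP1A4, a sinusoidal uptake carrier for bile acids, steroid conjugates and cardiac glycosides, and is a textbook PXR target in mice that have the receptor. Its level was 213, 78.7 and 158 normalized counts in chow mice 670, 695 and 707. It was 652, 647 and 715 in HFD mice 659, 669 and 696. The HFD mice were nearly alike, with a highest value 1.11 times the lowest, while the chow mice spread 2.71-fold. The lowest HFD mouse was 3.04 times the highest chow mouse, the widest gap of the 8 genes. Group means were 149.9 ± 67.5 and 671 ± 37.7 (SD, n = 3 each), 4.48-fold higher, and the difference of mean log2 levels was 2.27 (SE 0.42). The log2 fold change deposited by the authors was 1.71 (SE 0.23) with an adjusted p of 3.82e-10, which ranks 14 among the 336 rows. The gene lies on the minus strand of chromosome 6, from 141805440 to 141856199 of GRCm38, among 6 Slco genes of which 1, Slco1a4 itself, is a row of the table. Its transcripts share 1.56% of their stretches of 50 bases with Slco1a5 and 1.31% with Slco1a1.

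Slco2a1 (ENSMUSG00000032548), of the same family, encodes the prostaglandin transporter, which takes prostaglandins out of the extracellular space and is known from vascular endothelium among other cells. It went the other way. Its level was 1093, 1124 and 1517 normalized counts in chow mice 670, 695 and 707. It was 346, 533 and 424 in HFD mice 659, 669 and 696. All HFD mice were low, and the lowest chow mouse was 2.05 times the highest of them. Chow and HFD means were 1245 ± 236 and 434 ± 93.8 (SD, n = 3 each), 2.87-fold lower, with a difference of mean log2 levels of -1.52 (SE 0.23). The deposited log2 fold change was -1.34 (SE 0.19) with an adjusted p of 1.34e-09. Of 14 endothelial marker genes, 0 were rows of the diet table. The rows were not searched for other endothelial genes, so this count covers these 14 only. A list of 14 prostaglandin synthesis and breakdown genes, to which the receptor genes Ptger3 and Ptger4 had been added, also had 0 rows. The prostaglandin F receptor gene Ptgfr, outside that list and named after its values were seen, is a row listed as higher, with a deposited log2 fold change of 0.97. Of 12 stellate cell and fibroblast markers 4 were listed (Col3a1, Col1a1, Col1a2 and Vim), all as higher, beside 0.860% of all genes tested. The summed level of these 4 was 633 to 732 in chow mice and 1671 to 3262 in HFD mice. Of 12 macrophage markers 2 were listed (Itgax and Mmp12), also as higher, beside the same 0.860%. Their sums were 12.5 to 25.3 on chow and 71.2 to 119 on HFD. Both had few reads on chow, with mean normalized counts of 7.33 and 10.8. These sums cover only markers that the diet difference had selected, so their separation is given by that choice, and the other markers of both lists have no value here. Of 7 cholangiocyte markers 0 were listed. The part of cell composition in the Slco2a1 difference was not tested.

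Within each mouse the ratio of Slco1a4 to Slco2a1 counts was 0.195, 0.0700 and 0.104 in chow mice 670, 695 and 707 and 1.89, 1.21 and 1.69 in HFD mice 659, 669 and 696. Slco2a1 thus had the more reads in every chow mouse and Slco1a4 in every HFD mouse. Of 15 SLCO family genes these 2 are the rows of the table, beside 1.34% of all genes tested. Both were picked from the rows, so the count describes that choice. The 250 bases before the RefSeq start site of each gene (GRCm38.p6) are shown because these relatives moved in opposite directions. The Slco1a4 window is chr6:141856221-141856470 on the minus strand, and the Slco2a1 window is chr9:103008237-103008486 on the plus strand, inside the span of the gene in the deposited table. Capitals mark matches, on either strand, to 8 motifs searched by their letters, and no matches overlapped. These were TATAAA (the TATA box), CCAAT (the CCAAT box), GGGCGG (a GC box), CACGTG (an E-box), AGGTCA (a nuclear receptor half-site) with its variant AGTTCA, the HNF1 half-site GTTAAT, and TTCNNNGAA (bound by STAT factors, in 7.02% of windows).
Slco1a4: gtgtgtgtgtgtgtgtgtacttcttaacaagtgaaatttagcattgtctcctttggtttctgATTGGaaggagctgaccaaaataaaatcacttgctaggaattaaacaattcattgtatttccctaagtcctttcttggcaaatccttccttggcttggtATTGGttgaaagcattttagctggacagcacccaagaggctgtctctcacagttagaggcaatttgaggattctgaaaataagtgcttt
Slco2a1: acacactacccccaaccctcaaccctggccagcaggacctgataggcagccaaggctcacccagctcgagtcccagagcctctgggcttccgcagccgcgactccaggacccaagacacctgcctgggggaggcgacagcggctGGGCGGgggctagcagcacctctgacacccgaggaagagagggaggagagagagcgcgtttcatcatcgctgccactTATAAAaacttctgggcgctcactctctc
The Slco1a4 window held CCAAT at 2 places, beginning 188 and 89 bases before the start (in 33.8% of 32851 promoter windows of this length). The Slco2a1 window held GGGCGG at 106 bases (in 32.7% of windows) and TATAAA at 29 bases (in 12.4%). The nuclear receptor half-sites AGGTCA and AGTTCA, found in 14.0% and 11.8% of windows, were not among the letters of either window. Sequence outside these 250 bases was not searched, so their absence says nothing of sites farther away. The windows differed in base composition, with 39.2% G and C and 0 CpG in Slco1a4 against 63.2% and 12 CpG in Slco2a1 (median of all windows 52.4% and 6).

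Slc22a27 (ENSMUSG00000067656) and Slc22a29 (ENSMUSG00000075044) encode members of the organic anion transporter branch of SLC22, and neither has a well established substrate in liver. For Slc22a27 the level was 38.1, 10.6 and 8.45 normalized counts in chow mice 670, 695 and 707. In HFD mice 659, 669 and 696 it was 145, 56.0 and 108. Chow mouse 670 stood above the other chow mice and HFD mouse 669 below the other HFD mice, so the groups came within 1.47-fold of each other. Group means were 19.0 ± 16.5 on chow and 103 ± 44.5 on HFD (SD, n = 3 each), 5.41-fold higher, with a difference of mean log2 levels of 2.58 (SE 0.75). Without chow mouse 670 the ratio was 10.8-fold. The deposited log2 fold change was 1.29 (SE 0.29, adjusted p 0.001264).

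Slc22a29 was the least abundant of the genes, with raw counts of 10, 6 and 1 in chow mice 670, 695 and 707 and of 43, 18 and 31 in HFD mice 659, 669 and 696. In normalized counts these are 9.77, 5.76 and 1.21 on chow and 38.9, 19.4 and 27.3 on HFD. The groups did not overlap, but the chow level rests on 17 reads in all (95% exact Poisson interval 9.90 to 27.2, counting error only) against 92 on HFD (74.2 to 113). The mean went from 5.58 ± 4.28 to 28.5 ± 9.80 (SD, n = 3 each), 5.11-fold higher, with a difference of mean log2 levels of 2.39 (SE 0.73). Without chow mouse 670 the ratio was 8.18-fold. The deposited log2 fold change was 1.02 (SE 0.29, adjusted p 0.02865), rank 295 of 336 rows by adjusted p.

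These genes are neighbours on the minus strand of chromosome 19 of GRCm38, Slc22a27 from 7864388 to 7966027 and Slc22a29 from 8160165 to 8218900. Between them lie 194 kb and 1 further SLC22 gene, Slc22a28. Of the 8 protein-coding Slc22 genes of this stretch, 2 are rows of the table, and of 24 SLC22 family genes listed for this work the same 2 are. Both were picked from the rows, which are 1.34% of all genes tested. Their transcripts are alike: 25.3% of the stretches of 50 bases in Slc22a27 transcripts also occur in Slc22a29, and 23.0% the other way. In Slc22a30 7.86% and 9.23% occur, in part the same stretches. Counted once over all other genes, the shared part was 29.9% for Slc22a27 and 28.7% for Slc22a29. Reads that lie wholly within such stretches cannot be assigned by sequence, while longer reads that reach past them may be. Neither the read length nor how the authors' counting treated such reads is given in the sources used here. The counts of both genes are therefore uncertain. The ratio of Slc22a27 to Slc22a29 counts was 3.90, 1.83 and 7.00 in chow mice 670, 695 and 707 and 3.72, 2.89 and 3.97 in HFD mice 659, 669 and 696. The chow ratios rest on 10, 6 and 1 reads of Slc22a29, too few to tell whether the ratio differed between mice. The 250 bases before each start are shown because these neighbours were higher in the same mice (chr19:7966028-7966277 and chr19:8218901-8219150, GRCm38.p6, minus strand). Capitals mark matches to the same 8 motifs.
Slc22a27: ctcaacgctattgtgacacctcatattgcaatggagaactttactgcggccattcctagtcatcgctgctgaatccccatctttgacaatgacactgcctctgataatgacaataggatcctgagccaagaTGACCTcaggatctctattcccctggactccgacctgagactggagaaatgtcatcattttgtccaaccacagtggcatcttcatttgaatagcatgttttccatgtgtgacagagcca
Slc22a29: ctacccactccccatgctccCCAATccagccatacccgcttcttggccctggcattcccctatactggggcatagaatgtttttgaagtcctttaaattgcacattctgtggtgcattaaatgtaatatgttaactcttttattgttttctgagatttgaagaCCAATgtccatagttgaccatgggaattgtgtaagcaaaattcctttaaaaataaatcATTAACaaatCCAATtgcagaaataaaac
The Slc22a27 window held AGGTCA at 119 bases before the start, read on the opposite strand (14.0% of windows hold it). The Slc22a29 window held CCAAT at 230, 87 and 19 bases and GTTAAT, read on the opposite strand, at 29 bases (in 6.43% of windows). The pair shared no motif of the 8 in these windows, and both are poor in CpG, with 4 and 1.

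Slc17a4 (ENSMUSG00000021336) belongs to the family of sodium phosphate cotransporters whose members also carry organic anions such as urate. Its level was 354, 409.9 and 202 normalized counts in chow mice 670, 695 and 707. In HFD mice 659, 669 and 696 it was 1140.4, 724 and 834. Chow mouse 707 was low and HFD mouse 659 high, and the lowest HFD mouse was 1.77 times the highest chow mouse. Means of 322 ± 108 on chow and 899.8 ± 216 on HFD (SD, n = 3 each) differed 2.80-fold, with a difference of mean log2 levels of 1.52 (SE 0.37) and a deposited adjusted p of 2.04e-05. It lies on the minus strand of chromosome 13 from 23895890 to 23915009, and 0% of its stretches of 50 bases occur in another gene's transcripts.

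Slc13a3 (ENSMUSG00000018459) encodes NaDC3, which imports succinate, alpha-ketoglutarate and other dicarboxylates with sodium. Its level was 404, 203 and 161 normalized counts in chow mice 670, 695 and 707. In HFD mice 659, 669 and 696 it was 681, 421 and 691. Chow mouse 670 reached almost the level of HFD mouse 669, the latter being 1.04 times the former, the narrowest gap of the 8 genes. In raw counts, and when scaled on the listed genes, the groups overlapped. The mean went from 256 ± 129.9 to 598 ± 153 (SD, n = 3 each), 2.34-fold higher, with a difference of mean log2 levels of 1.30 (SE 0.46) and a deposited adjusted p of 0.0166. The gene lies on the minus strand of chromosome 2 from 165405028 to 165473230. The antisense gene Gm14437 overlaps 8222 bases of it but 0 exon bases.

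Slc16a1 (ENSMUSG00000032902) encodes MCT1, the proton-coupled carrier of lactate, pyruvate and ketone bodies, which reaches the cell surface with its chaperone basigin (Bsg). It was lower on HFD. Its level was 2661, 1803 and 1564 normalized counts in chow mice 670, 695 and 707. In HFD mice 659, 669 and 696 it was 1112, 737 and 791. Chow mouse 670 and HFD mouse 659 were the high mice of their groups, and the lowest chow mouse was 1.41 times the highest HFD mouse. The mean went from 2009 ± 577 to 880.4 ± 203 (SD, n = 3 each), 2.28-fold lower, with a difference of mean log2 levels of -1.18 (SE 0.29). The deposited log2 fold change was -1.01 (SE 0.20, adjusted p 0.0001847). Of 16 SLC16 genes and chaperones 1, Slc16a1, is a row of the table, and of 11 genes of ketone body and lactate metabolism 0 are. Slc16a1 was itself picked from the rows, which are 1.34% of all genes tested. It lies on the plus strand of chromosome 3 from 104638668 to 104658462, and 0% of its stretches of 50 bases occur in other transcripts. The 250 bases before its RefSeq start (chr3:104638414-104638663, plus strand) are shown with those of Slc13a3 (chr2:165473198-165473447, minus strand), since CACGTG, an E-box, stood in each of these windows although the genes moved in opposite directions.
Slc16a1: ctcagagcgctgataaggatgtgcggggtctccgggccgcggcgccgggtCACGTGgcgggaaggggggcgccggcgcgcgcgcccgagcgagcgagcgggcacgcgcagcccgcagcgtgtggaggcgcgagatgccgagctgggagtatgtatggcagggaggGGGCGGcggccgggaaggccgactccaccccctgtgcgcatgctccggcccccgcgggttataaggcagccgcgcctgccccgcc
Slc13a3: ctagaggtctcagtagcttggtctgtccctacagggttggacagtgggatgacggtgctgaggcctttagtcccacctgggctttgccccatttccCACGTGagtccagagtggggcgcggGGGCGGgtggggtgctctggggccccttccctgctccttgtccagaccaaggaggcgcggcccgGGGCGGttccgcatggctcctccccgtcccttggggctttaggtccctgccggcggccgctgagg
The last bases of the Slc13a3 window lie inside the deposited span of that gene, which reaches 165473230. The E-box began 200 bases before the RefSeq start in Slc16a1 and 154 bases before it in Slc13a3. It occurs in 6.02% of all windows and in 2 of the 7 transporter genes with a window (Slc17a4 had none). This pair was shown because of the shared motif, so the count describes that choice. Other motifs recurred too, GGGCGG also in Slco2a1, CCAAT in Slco1a4, Slc22a29 and Slc26a10, and TATAAA in Slco2a1 and Slc26a10. The windows behind the 6.02% were not matched for base composition, and enrichment was not tested. GGGCGG stood at 85 bases in Slc16a1, and at 129 and 65 bases in Slc13a3. Both windows are rich in G and C, at 76.4% with 37 CpG and 67.6% with 14 CpG.

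Slc26a10 (ENSMUSG00000040441) is a relative of the sulfate and anion exchangers of the SLC26 family, with no established transport role. Its level was 22.5, 23.0 and 14.5 normalized counts in chow mice 670, 695 and 707. In HFD mice 659, 669 and 696 it was 59.6, 43.1 and 90.6. HFD mouse 696 was high, and the lowest HFD mouse was 1.87 times the highest chow mouse. The mean went from 20.0 ± 4.79 to 64.4 ± 24.1 (SD, n = 3 each), 3.22-fold higher, with a difference of mean log2 levels of 1.60 (SE 0.37) and a deposited adjusted p of 0.006643. It lies on the minus strand of chromosome 10 from 127171393 to 127180645, where 715 of its 4027 exon bases are also exon bases of B4galnt1 on the other strand. Whether the counting used strand is not given in the sources used here, so reads of these genes may not have been told apart, and B4galnt1 is not a row of the table. Of 23 SLC17, SLC13 and SLC26 genes 3 are rows, all higher, beside 1.34% of all genes tested. They are Slc17a4, Slc13a3 and Slc26a10, which were picked from the rows, so the count describes that choice. Of 18 genes of bile salt uptake and of ABC or OST efflux, such as Slc10a1 and Abcb11, 0 are rows.

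Per kilobase of exon, Slc16a1 was the most abundant of the 8 genes in both groups. On chow it stood at 454 ± 130.3 normalized counts per kb (SD, n = 3), followed by Slco2a1 at 91.9 ± 17.4, Slc17a4 at 53.8 ± 18.0, Slc13a3 at 49.0 ± 24.9 and Slco1a4 at 23.4 ± 10.5. Slc22a27 (8.85 ± 7.69), Slc26a10 (4.97 ± 1.19) and Slc22a29 (2.46 ± 1.89) came last. Among neighbours in this order, the mice separated Slc16a1 from Slco2a1 and Slco2a1 from Slc17a4, and the other neighbours overlapped. On HFD the order was Slc16a1 (199 ± 45.8), Slc17a4 (151 ± 36.1), Slc13a3 (115 ± 29.4), Slco1a4 (105 ± 5.88), Slc22a27 (47.8 ± 20.7), Slco2a1 (32.1 ± 6.93), Slc26a10 (16.0 ± 5.99) and Slc22a29 (12.5 ± 4.31, all SD, n = 3). There only Slco1a4 and Slc22a27, and Slco2a1 and Slc26a10, were neighbours whose mice did not overlap. Slco2a1 thus went from the second place to the sixth. Lengths merge all annotated exons of a gene, from 2152 bases for Slc22a27 to 13545 for Slco2a1, so a gene that uses short isoforms is set too low.

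**Figure D2:**
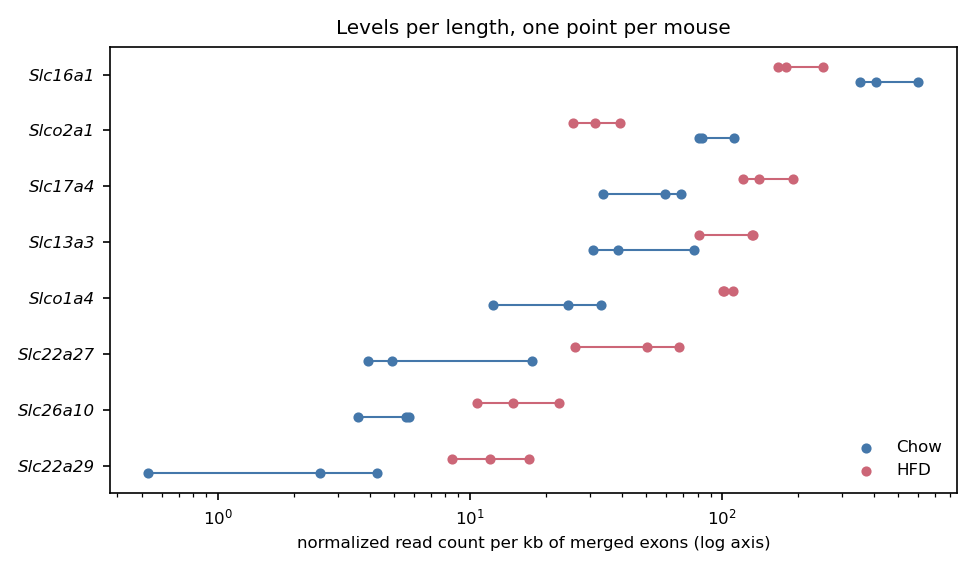
Normalized read counts per kb of merged exons (horizontal log axis) for the 8 transporter genes, ordered by chow mean, with 1 point per mouse and a line spanning the 3 mice of a group (blue chow, red HFD). Slc16a1 and Slco2a1 shift to the left on HFD and the other 6 genes to the right.

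The chow mice varied more in these genes than in the table at large. The SD of log2 levels among the 3 chow mice had a median of 0.61 over the 8 genes and of 0.32 over all 336 rows, and 7 of the 8 genes lay above that of the median row. Among the HFD mice the medians were 0.37 and 0.26, and again 7 of 8 lay above, the exception being Slco1a4 (0.08). The rows compared were not matched for read count. The largest chow SDs, 1.11 and 1.18, were those of Slc22a27 and Slc22a29, with raw chow counts of 7 to 39 and 1 to 10. HFD mouse 669 had the lowest level of its group in all 6 genes that were higher on HFD, as it did in 34.9% of the 215 rows listed as higher, and the highest level of Slco2a1. Chow mouse 707 had the lowest level of its group in 5 of the 6 (30.2% of those rows), the exception again being Slco1a4, and the highest level of Slco2a1. These 2 mice also had the smallest size factor of their group (0.929 and 0.8286), and the part of depth in this pattern was not tested. Slc22a27, Slc22a29 and Slc16a1 ranked the mice in 1 order, 670, 695, 707 on chow and 659, 696, 669 on HFD, an order found in 4.17% of all rows. Slco2a1 had exactly the reverse order, found in 2.98% of rows.

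**Figure D3:**
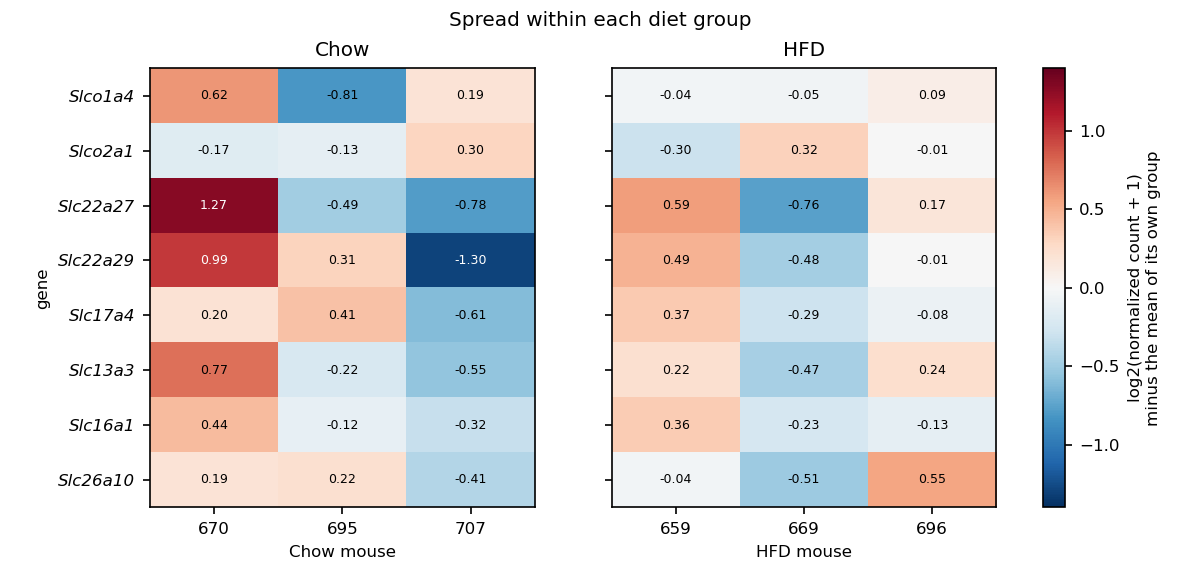
Difference of log2(normalized count + 1) of each mouse from the mean of its own group, for 8 transporter genes (rows) in 3 chow mice (left) and 3 HFD mice (right), red above and blue below the mean, with the values printed. Slc22a27 and Slc22a29 show the widest chow spread, up to 1.27 in mouse 670 and down to -1.30 in mouse 707, and Slco1a4 is nearly flat on HFD.

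The authors' deposited log2 fold changes were below the log2 ratios computed from group means, in absolute size, for all 8 genes, as for all 334 rows with counts in both groups. For Slco2a1 the deposited value was 88.2% of the log2 ratio, for Slc16a1 84.8%, for Slc17a4 81.5%, for Slco1a4 79.1% and for Slc13a3 75.8%, around the median of 83.7% over those rows. It was 65.2% for Slc26a10, 53.0% for Slc22a27 and 43.4% for Slc22a29, the genes with the fewest reads. By ratio of means over all 6 mice Slc22a27 and Slc22a29 stood first among the 8 genes, but that order turned on single mice, since without chow mouse 707 their log2 ratios were 2.08 and 1.88 against 2.20 for Slco1a4. By the deposited fold Slco1a4 stood first.

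**Figure D4:**
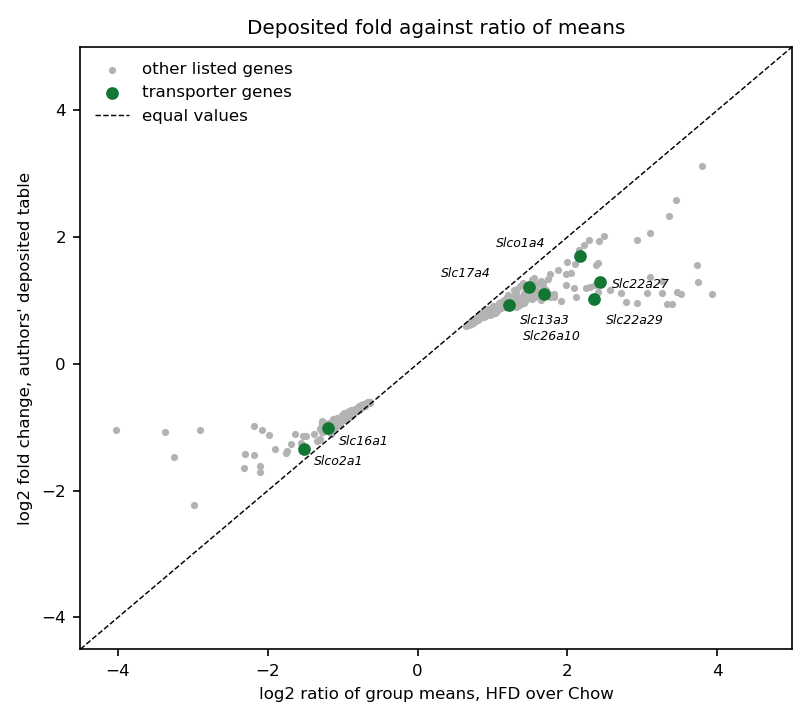
Log2 fold change in the authors' deposited table (vertical) against the log2 ratio of group means, HFD over chow (horizontal), for the 334 listed genes with counts in both groups, transporter genes in green and equal values on the dashed line. Slc22a27 (2.43 and 1.29) and Slc22a29 (2.35 and 1.02) lie farthest from the line among the 8 genes.

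For each transporter gene, the listed genes that followed it most closely over the 6 mice were found by Pearson's r (log2 scale). The other transporter genes were left out of this search. Slc22a27 and Slc13a3 followed each other (r = 0.991) more closely than either followed the genes named for it below. Since every row was selected for its diet difference, r is high for most pairs (median 0.844 among the rows listed as higher), and it is given only as a description. Nearest to Slco1a4 were Myom3 (r = 0.987), a sarcomere gene, and Fam169b (0.984). Nearest to Slco2a1 were Pgap1 (0.988), a GPI anchor remodelling gene, and C1galt1c1 (0.983), which encodes the chaperone Cosmc. Nearest to Slc22a27 were Tceal8 and Samd9l (0.983 each), and to Slc22a29 Extl1 (0.981) and the acyl-CoA thioesterase gene Acot11 (0.977). Acot11 was also among the nearest to Slc17a4 (0.995), with Endod1 (0.995). Nearest to Slc13a3 were Enc1 (0.968) and the annexin gene Anxa5 (0.959), to Slc16a1 Pnrc1 (0.993) and Rhod (0.992), and to Slc26a10 the trehalase gene Treh (0.970) and the growth factor gene Nrg4 (0.968).

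Some liver genes differ by sex, and Slco1a4 is known to be higher in livers of female mice. Of 18 female-biased liver genes 4 were rows of the table (Cyp2a4, Cyp2b13, Hao2 and Fmo2), all as higher, beside 0.860% of all genes tested, and their summed level was 314 to 543 in chow mice and 997 to 1419 in HFD mice. Of 19 male-biased genes 3 were rows (Mup20, Gstp1 and Cyp4a12a), all as lower, beside 0.484%, with sums of 14255 to 21195 and 8409 to 9199 that are mostly Mup20. Both lists were drawn up with earlier results of these data known, so the shared direction holds for their members only. Other rows, such as Cyp4a14 and Cyp39a1, both lower (deposited log2 fold changes -1.38 and -0.86), were in neither list and were not classed by sex. Sex-biased genes among such rows may go against the direction of the lists. Nothing is therefore said of female-biased or male-biased genes as a class. The rows of the lists too were selected for their diet difference, and the other genes of both lists have no value here. The part of sex-biased expression in the transporter differences was not tested. Of 14 transcription factor genes that control liver transporters, Nr1i3 and Ppara among them, 0 were rows.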

How the data were processed

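RNA of 12 mouse livers was sequenced. The deposited columns used here are raw read counts per gene and mouse. Per the file headers, the authors' own mean of normalized counts, fold change on the log2 scale with its error, and raw and adjusted p-value stand beside them. HISAT2, HTSeq, DESeq2 and GRCm38 (mm10) are named in the submitters' processing notes; the sources used here give no versions, settings or strand. The tables hold selected genes (336 and 33), so total depth is unknown. The number of genes tested follows from the relation of p to adjusted p (24940 to 25060 fitted equally well).

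The size factor of each mouse was solved from the authors' column of means by least squares (largest gap 0.0051 counts), after a check on simulated data. A fold is the HFD mean over the chow mean of normalized counts, or its inverse. Log2 levels have 1 added. No test was run on the diet contrast, which chose the genes. The members and lists were chosen with earlier results of these data known. Named besides the 8 genes were the 2 rows most like each by r, among rows that average 10 or more counts and are no predicted genes, and members of the lists. Annotation was GENCODE M21, whose spans equalled the deposited ones for all 8 genes, and promoters were from RefSeq (7 of 8 matched). TMM scaling used edgeR 4.0.16 and median-of-ratios DESeq2 1.42.0 in R 4.3.3; the rest used Python 3.11.15 with scipy 1.17.1. p-values printed are the authors'. Mice are separate animals by their numbers.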

Additional observations from a re-analysis of the deposited data

How the results depend on the processing

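The 8 directions were the same under every alternative run (scaling, geometric means, leaving out each mouse). Values here are log2 ratios, HFD over chow. Scaled by TMM over the listed rows, Slco1a4 went from 2.16 to 1.52, Slco2a1 from -1.52 to -2.15, Slc22a27 from 2.43 to 1.78, Slc22a29 from 2.35 to 1.70, Slc17a4 from 1.48 to 0.84, Slc13a3 from 1.23 to 0.58, Slc16a1 from -1.19 to -1.84 and Slc26a10 from 1.69 to 1.06. With DESeq2 median-of-ratios over the listed rows these were 1.48, -2.19, 1.76, 1.69, 0.83, 0.56, -1.86 and 1.04. These scalings centre on selected genes, which moved the median of all rows by -0.64 and -0.66, and they made the groups overlap in 2 genes, Slc22a27 and Slc13a3, leaving 4 of 6 higher genes without overlap. Raw counts made them overlap in Slc13a3, leaving 5. A mean count of at least 10 kept all 8 genes. Leaving out each mouse gave 1.86 to 2.50 for Slco1a4, -1.69 to -1.35 for Slco2a1, 2.08 to 3.44 for Slc22a27, 1.88 to 3.03 for Slc22a29, 1.24 to 1.70 for Slc17a4, 0.98 to 1.72 for Slc13a3, -1.39 to -0.94 for Slc16a1 and 1.36 to 1.91 for Slc26a10. Depth limits Slc22a29 most, with 17 reads on chow. No paired analysis was possible because the groups share no mouse numbers.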
